A study of Mus musculus with 16 samples.

Results

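The ileum of mice that had lost Neurog3 in the intestinal epithelium was compared with the ileum of control mice across all genes of the deposited count table. The comparison used the 4 mutant and the 4 control ileum libraries, 8 of the 16 libraries of the series, and the other 8 are duodenum libraries. All mice were adult C57BL/6N males fed a high fat diet and sampled 5 weeks after tamoxifen. All carried the floxed alleles Neurog3f/f, and the mutants also carried Villin-CreERT2, a recombinase that tamoxifen activates and that the Villin promoter drives in intestinal epithelium. The controls had no recombinase, so that loss of Neurog3 and the presence of active recombinase cannot be told apart. With C for control and M for mutant before the mouse number, the controls are C133, C134, C151 and C154 and the mutants M136, M167, M168 and M177, and series of values below follow these orders.

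Neurog3 is the transcription factor that commits crypt progenitors to the enteroendocrine lineage, the scattered hormone-secreting cells of the gut lining. In the ileum these are known chiefly as L cells, which make GLP-1 from Gcg and peptide YY from Pyy, as N cells, which make neurotensin, and as enterochromaffin cells, which make serotonin. The same progenitors also give rise to the goblet, Paneth, tuft and absorptive cells of the epithelium, and the ileal wall holds many lymphocytes, some of them in the follicles of Peyer's patches.

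The 8 libraries held 40.9 to 58.0 M counts, and levels are given as CPM, a gene's counts per M counts of its library, with library sizes adjusted by TMM normalization. Ileal bile acid genes (Slc10a2, Fabp6, Slc51a, Slc51b and Fgf15) had a summed level between 1250 and 3310 CPM in every library. Their level in the duodenum is not given here, so these values do not check the tissue label. Mitochondrial transcripts took 2.80, 2.72, 2.99 and 2.95% of counts in controls and 2.66, 2.35, 2.41 and 2.42% in mutants, lower in every mutant library than in every control. Lymphoid and pancreatic transcripts set libraries apart. A list of 20 genes of lymphoid follicles summed to 40.7, 363, 47.8 and 429 CPM in controls and to 18, 103, 74.5 and 67.9 CPM in mutants, high in control mice C134 and C154. It includes Gp2, which is also a gene of the exocrine pancreas. A list of 12 genes of the exocrine pancreas summed to 1500, 155, 1210 and 118 CPM in controls and to 250, 3380, 2660 and 2000 CPM in mutants, low in the same 2 controls and in mutant mouse M136. Results that follow these libraries are given with and without control mice C134 and C154. The part of pancreatic RNA in any result was not tested. The RNA comes from whole tissue, in which fewer cells of a type and less RNA per cell cannot be told apart.

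Promoters of 7 genes are printed here because each stands for a list whose members moved together in the ileum and because its upstream bases hold the letters of a motif associated with that list. The sequences are the 160 bases before the RefSeq start site in GRCm38.p6, 5′ to 3′ on the gene's strand, with the letters of the list's motif, read on either strand, in capitals. Asns was named by a fixed rule and Gcg always; B2m, H2-Aa, Ifit1, Cdk1 and Hmgcs1 were chosen after their values were seen.
Gcg: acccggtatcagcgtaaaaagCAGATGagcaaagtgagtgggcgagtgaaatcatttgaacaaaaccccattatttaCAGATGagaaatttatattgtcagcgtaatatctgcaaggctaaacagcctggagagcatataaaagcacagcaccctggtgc
B2m: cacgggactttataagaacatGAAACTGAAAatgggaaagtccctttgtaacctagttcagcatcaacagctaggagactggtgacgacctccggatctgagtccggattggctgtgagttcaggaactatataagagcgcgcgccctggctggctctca
H2-Aa: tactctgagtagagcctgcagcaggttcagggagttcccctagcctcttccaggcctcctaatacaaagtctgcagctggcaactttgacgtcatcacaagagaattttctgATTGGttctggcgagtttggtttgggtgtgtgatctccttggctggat
Ifit1: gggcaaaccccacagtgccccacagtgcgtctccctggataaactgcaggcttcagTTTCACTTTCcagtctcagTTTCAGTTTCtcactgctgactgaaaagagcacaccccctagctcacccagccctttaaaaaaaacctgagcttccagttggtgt
Cdk1: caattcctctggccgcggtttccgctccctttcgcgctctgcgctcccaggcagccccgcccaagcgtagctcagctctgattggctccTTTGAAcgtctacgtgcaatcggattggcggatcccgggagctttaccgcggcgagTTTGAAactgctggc
Hmgcs1: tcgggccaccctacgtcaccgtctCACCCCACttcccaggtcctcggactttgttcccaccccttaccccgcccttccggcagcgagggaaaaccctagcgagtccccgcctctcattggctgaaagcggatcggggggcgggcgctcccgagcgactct
Asns: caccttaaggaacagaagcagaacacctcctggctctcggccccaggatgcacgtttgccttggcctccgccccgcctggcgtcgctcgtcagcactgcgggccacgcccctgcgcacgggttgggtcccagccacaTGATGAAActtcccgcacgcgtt
Gcg is at chr2:62483654-62483813 (minus strand), B2m at chr2:122147527-122147686 (plus), H2-Aa at chr17:34287824-34287983 (minus), Ifit1 at chr19:34640729-34640888 (plus), Cdk1 at chr10:69352913-69353072 (minus), Hmgcs1 at chr13:119690191-119690350 (plus) and Asns at chr6:7693210-7693369 (minus).

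The motifs were counted on both strands, in windows from 250 bases before to 50 bases after the start, for list members and for the 12242 tested genes with a RefSeq promoter, and no motif contains another. GAAA followed after any 2 bases by GAAA, the core of the interferon-stimulated response element, was in 14 of 21 interferon response promoters (66.7%) and in 5 of 14 MHC class I promoters (35.7%), against 3.90% of all tested genes. TTTGAA, the core of the CHR element of mitotic genes, was in 16 of 22 mitosis promoters (72.7% against 14.9%). TTTGGCGC, an E2F site, was in 5 of 26 DNA replication promoters (19.2% against 1.01%). TGATGNAA, the amino acid response element, was in 5 of 15 promoters of its list (33.3% against 2.83%), and CACCCCAC, a sterol regulatory element, in 2 of 17 cholesterol synthesis promoters (11.8% against 3.89%). ATTGG, the Y box of class II promoters, was in 7 of 7 (100% against 42.3%). CAGATG, an E-box that NeuroD1 can bind, was in 7 of 12 hormone promoters (58.3% against 14.4%) and in 1 of 11 promoters of enteroendocrine transcription factors (9.09%). A match describes letters and shows no binding.

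A large share of the ileal transcriptome differed between mutants and controls. Of 18310 genes tested with edgeR's quasi-likelihood test, 3474 (19.0%) were higher and 2672 (14.6%) were lower in mutants, 33.6% in all, at a Benjamini-Hochberg adjusted p under 0.05. At least 2-fold differences were more often falls, with 1150 genes lower and 553 higher. Over all 18310 genes tested, whether called or not, 3427 (18.7%) had every mutant library above every control and 2603 (14.2%) had every mutant library below. The median log2 fold change over all tested genes was -0.03. Most members of the enteroendocrine, antigen presentation, interferon and T cell lists fell, and most members of the lists for cell division, ribosome assembly, glycolysis and cholesterol synthesis rose. Without control mice C134 and C154, 2390 genes rose and 1677 fell, among them 3748 of the 6146 first called, none with a changed sign.

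**Figure D1:**
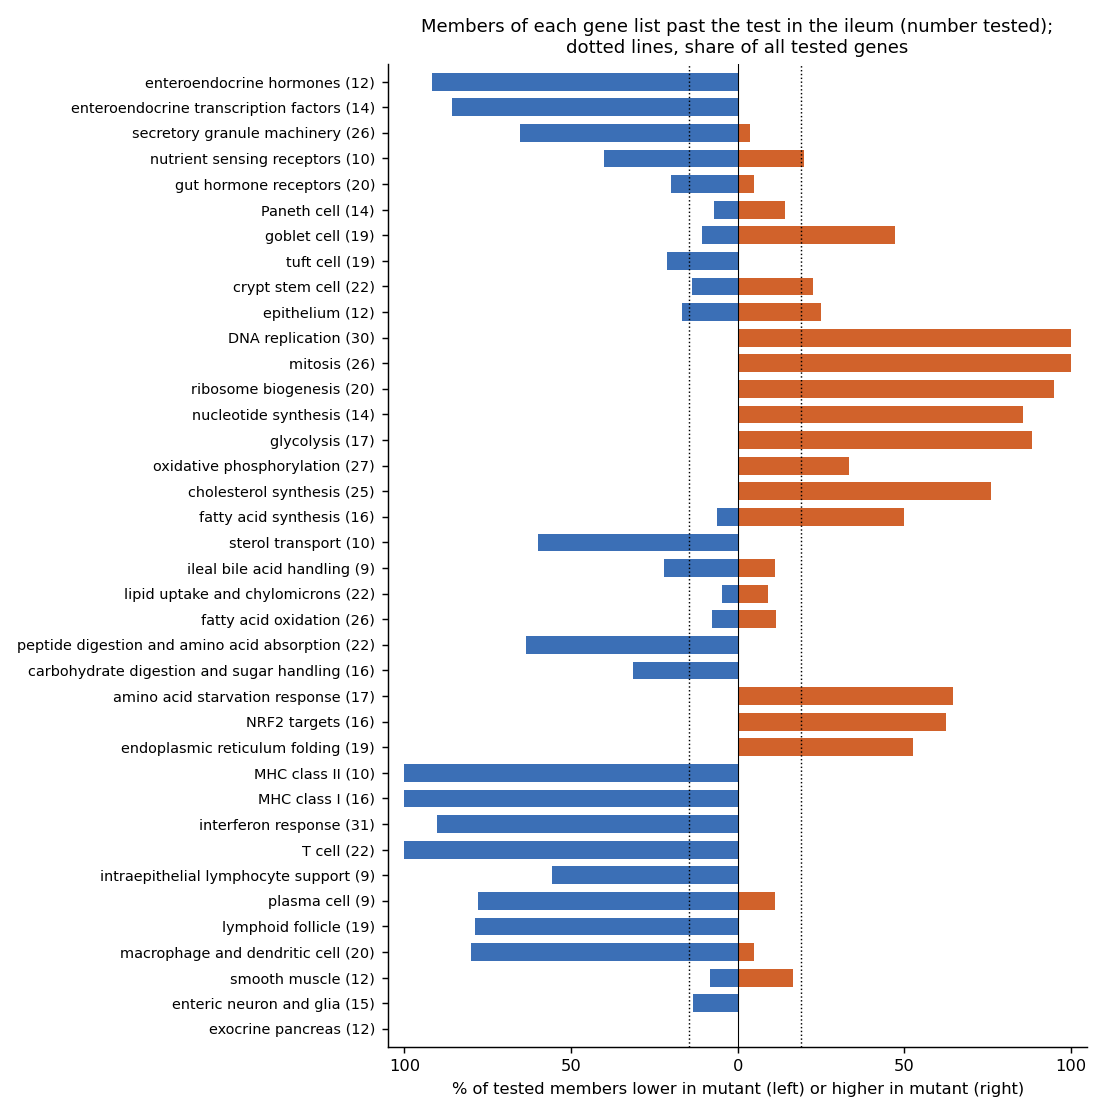
Share of the tested members of each gene list that were lower (blue, left) or higher (orange, right) in mutant ileum, in percent, with the number tested in parentheses. Dotted lines mark the shares over all tested genes, 14.6% lower and 19.0% higher. All tested members of the DNA replication and mitosis lists lie on the right and all of the MHC class I, MHC class II and T cell lists on the left.

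The targeted gene was nearly absent from the mutants. Neurog3 (ENSMUSG00000044312) stood at 1.17, 1.21, 1.09 and 0.663 CPM in control mice and at 0.0195, 0, 0 and 0 CPM in mutants. That is 201 counts against 1, which is 217-fold lower (95% counting interval 38.6 to 8630; log2 fold change -7.14, adjusted p = 4.32e-05). The interval covers counting error only, as do the floors of 3 counts over a group used below for genes with no count.

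Of 12 hormone genes tested, 11 fell and none rose, against 14.6% lower over all genes, and their median log2 fold change was -7.71 (-7.32 with Gip and Ghrl, which had no count in mutants, at the bound that the floor gives). The L cell hormones were almost lost. Gcg stood at 62.4, 48.3, 61.9 and 36.2 CPM in the controls, compared with 0.136, 0.186, 0 and 0.0846 CPM in mutants, a log2 fold change of -8.91 (SE 0.45, adjusted p = 1.9e-05). Pyy stood at 30.5, 21.1, 23.3 and 15 CPM against 0, 0, 0.0413 and 0.0423 CPM (log2 fold change -10 ± 0.47 SE, adjusted p = 4.38e-06). For both genes every control library lay far above every mutant library. Nts, which encodes neurotensin, stood at 35.4, 94.9, 39.4 and 44.3 CPM in controls, highest in mouse C134, and at 2 counts over all mutants, 5380-fold lower (interval 1490 to 44400). Tph1, the first enzyme of gut serotonin synthesis, stood at 10.1, 9.99, 9.1 and 10.6 CPM against 0, 0.0846, 0.0619 and 0.0212 CPM (log2 fold change -7.76 ± 0.39 SE, adjusted p = 2.86e-06).

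Hormones better known from the proximal gut were also measurable in control ileum and fell. Cck, the cholecystokinin gene, stood at 4.16, 5.21, 3.96 and 4.4 CPM in controls and had counts only in mutant mouse M168, at 0.0826 CPM (log2 fold change -7.65 ± 0.60 SE, adjusted p = 3.61e-05). Gip, which encodes an incretin, stood at 4.66, 8.8, 3.21 and 3.17 CPM and was not counted in any mutant, at least 341-fold lower. Ghrl, the ghrelin gene, was at least 126-fold lower, with 351 counts against 0.

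A remainder was kept by 3 hormone genes. Sst, the somatostatin gene, stood at 26.8, 24.3, 22.8 and 24.2 CPM in control libraries and 4.43, 4.09, 4.38 and 4.36 CPM in mutant libraries, which is 5.69-fold lower (SE 0.10 on the log2 scale, adjusted p = 6.02e-07). Mutant libraries were thus nearly equal to each other and far below the controls. Sct, the secretin gene, fell from 19.6 ± 3.88 to 5.39 ± 0.398 CPM (mean ± SD, n = 4; log2 fold change -1.86). Tac1, the substance P gene, which enteric neurons also express, fell from 4.96 ± 1.06 to 2.51 ± 0.567 CPM (log2 fold change -0.98). Cartpt missed the threshold (log2 fold change -1.06, adjusted p = 0.0729). Markers of enteric neurons and glia, the other known source of several of these peptides, had 2 of 15 members lower (Vip and Stmn2), against 14.6% over all genes. That count was 5 without mutant mouse M167 and 1 without any other mouse but C154, and their summed level overlapped between the groups, at 81.9 to 122 CPM in mutants. Their part in the remaining hormone transcripts was not tested. With control mice C134 and C154 left out, all 12 hormone genes fell.

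**Figure D2:**
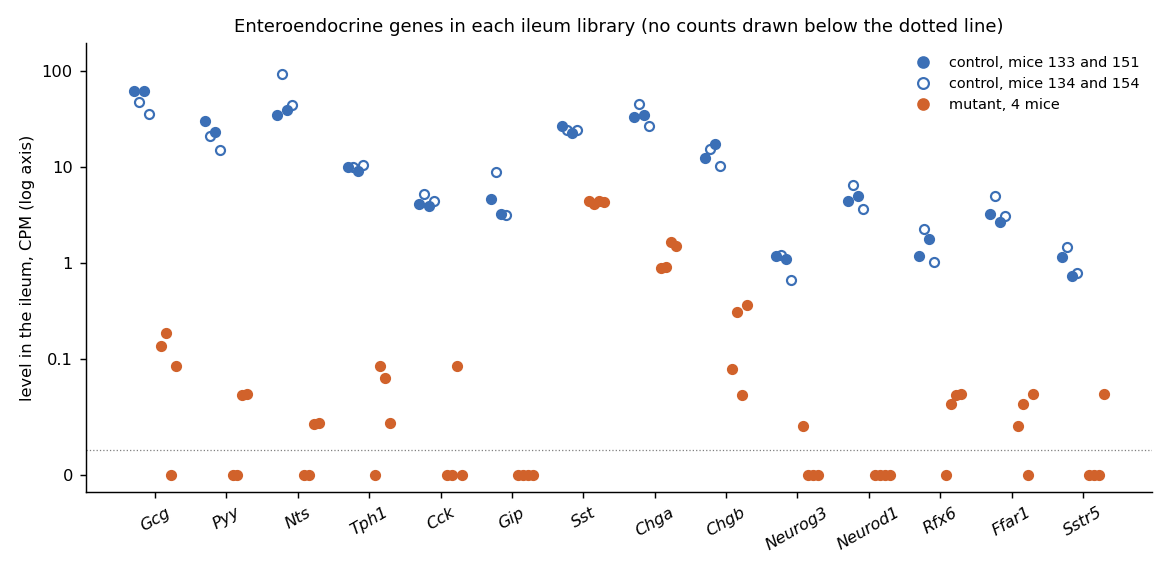
Level of 14 enteroendocrine genes in each of the 8 ileum libraries, in CPM on a log axis. Each point is 1 library, blue for controls (open for mice C134 and C154) and orange for mutants, and libraries without a count are drawn below the dotted line. Sst keeps 4.09 to 4.43 CPM in mutants, while Gip and Neurod1 have no count in any of them.

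The transcription factors that act after Neurog3 in this lineage fell with the hormones, 12 of 14 tested with a median log2 fold change of -4.97. Neurod1, which keeps the endocrine programme running, stood at 4.41, 6.56, 5.03 and 3.68 CPM in control ileum but at 0 in all mutants, at least 337-fold lower. Rfx6 stood at 1.19, 2.25, 1.79 and 1.01 CPM against 0, 0.0338, 0.0413 and 0.0423 CPM (log2 fold change -5.62 ± 0.53 SE, adjusted p = 6.1e-05). Nkx2-2 fell by 4.90 on the log2 scale, with 153 counts in controls and 5 in mutants. Fev was at 0 in all mutants, at least 87.9-fold lower. Insm1, an early factor that is also active in neurons, kept 0.177 ± 0.0638 of 1.79 ± 0.573 CPM. Rfx3 and Mnx1, with log2 fold changes of -0.09 and -0.70, did not pass the test (adjusted p = 0.588 and 0.155).

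Genes of the secretory granule fell less completely, 17 of 26 lower and 1 higher, with a median log2 fold change of -0.79. Chga, the chromogranin A gene, stood at 33.4, 46.2, 35 and 27.2 CPM in control mice and 0.877, 0.897, 1.65 and 1.5 CPM in mutants, 28.9-fold lower (adjusted p = 9.28e-06). Chgb fell further, by 6.12 on the log2 scale (SE 0.49), from 10.2 to 17.4 CPM in controls to at most 0.36 CPM in mutants. Pcsk1, the convertase that releases GLP-1 from its precursor, stood at 32.8 to 41.3 CPM against 9.99 to 15.8 CPM, a log2 fold change of -1.43 (SE 0.15, adjusted p = 0.000103). The member that rose was Syt7, a calcium sensor of exocytosis in many cell types (log2 fold change 0.55, adjusted p = 0.00488).

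Among 10 receptors by which enteroendocrine cells sense nutrients, 4 fell and 2 rose, against 14.6% and 19.0% over all genes. The share that rose lies near that over all genes. Ffar1, a receptor for long-chain fatty acids, stood at 3.25, 4.94, 2.67 and 3.1 CPM in the controls, compared with 0.0195, 0.0338, 0 and 0.0423 CPM in mutants (log2 fold change -7.03 ± 0.45 SE, adjusted p = 1.41e-05). Casr, the calcium-sensing receptor, fell by 3.82 (adjusted p = 0.000595), Gpbar1, a bile acid receptor, by 1.29 and Ffar3, a receptor for short-chain fatty acids, by 1.06. Ffar4, another fatty acid receptor, rose from 4 to 5.62 CPM in controls to 7.09 to 10.8 CPM in mutants (log2 fold change 0.83, adjusted p = 0.00409). The other member that rose was Trpa1, by 0.82 (adjusted p = 0.0194). It missed the threshold once control mice C134 and C154 were left out (adjusted p = 0.0786), with all 16 libraries in 1 fit, with the follicle genes as a covariate and against a fold change of 1.5. Without control mouse C133, 2 of the receptors fell. Of 20 receptors for gut hormones 4 fell (2 without any 1 of mice C133, C134, M168 and M177) and 1 rose, against 14.6% and 19.0% over all genes. The rise was that of Glp2r (log2 fold change 0.41), and no receptor rose without mouse C133, C154 or M177. Sstr5, a somatostatin receptor, went from 198 counts to 2, 107-fold lower (interval 29.2 to 890), and Sstr1 fell by 1.25 (adjusted p = 0.00393), Sstr3 by 1.06 and the neuropeptide Y receptor gene Npy1r by 0.76. Glp1r, the GLP-1 receptor, missed the threshold (log2 fold change -0.66, adjusted p = 0.201).

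Other genes with the largest falls are not classical hormones of the gut. Adgrg4, an adhesion receptor, stood at 6.44, 13.4, 8.79 and 8.82 CPM in control ileum but at 0 in all mutants, at least 627-fold lower. Afp, the fetal plasma protein alpha-fetoprotein, stood at 3.13 to 5.28 CPM against 0.0169 to 0.165 CPM, a log2 fold change of -6.15 (SE 0.53, adjusted p = 4.32e-05). Lep, the leptin gene, went from 438 counts, at 0.712 to 3.65 CPM, to 3 counts, 158-fold lower (interval 53.7 to 768). The fat cell markers Adipoq and Plin1 were at 6.76 ± 1.35 and 7.65 CPM in controls and 6.77 ± 4.57 and 6.98 CPM in mutants, neither past the test (adjusted p = 0.997 and 0.879). Cfd and Cidec, also of the fat cell list, rose by 2.65 and 0.85.

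The other secretory cells of the epithelium differed from one another. Goblet cell genes rose in 9 of 19 cases and fell in 2 (1 without any 1 mouse other than C134 and M177), with a median log2 fold change of 0.34. Over all genes 19.0% rose and 14.6% fell, and the share of goblet cell genes that fell lies under the latter. Agr2, a disulfide isomerase needed for mucin folding, rose from 237 ± 12.9 CPM to 635, 497, 530 and 719 CPM (log2 fold change 1.33 ± 0.12 SE, adjusted p = 6.15e-05). Creb3l1 and Galnt12, a secretory pathway factor and an enzyme of mucin glycosylation, rose by 0.94 and 0.56. Retnlb, which encodes the goblet cell protein RELM-beta, stood at 0.419, 0, 0.262 and 0.786 CPM against 6.38, 36.6, 7.33 and 16.6 CPM (log2 fold change 5.52 ± 0.99 SE, adjusted p = 0.00623). The mucin gene Muc2 varied widely, from 2250 ± 998 to 3060 ± 2070 CPM, and did not pass the test (adjusted p = 0.59), while Fcgbp and Clca1 fell by 0.64 and 0.52. Once control mice C134 and C154 were left out, 5 goblet cell genes rose and 1 fell.

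Few Paneth cell genes passed the test, 2 of 14 higher (Mptx2 and Ang4, by 1.21 and 0.50) and 1 lower, with a median log2 fold change of -0.03 and below the 19.0% and 14.6% over all genes. Itln1, an intestinal lectin, fell from 3630 ± 574 to 2510 ± 475 CPM (adjusted p = 0.026, 0.0827 at most with 1 mouse left out), and the lysozyme gene Lyz1 was at 7220 ± 2400 and 6650 ± 3040 CPM. In the fit lacking control mice C134 and C154, 4 Paneth cell genes rose and none fell, with a median of 0.31. None of the 14 rose without control mouse C133 or C151 or mutant mouse M136 or M168, and 1 rose without control mouse C134, while none fell without C134 or C154. Defensin genes have near-identical copies among which the authors' counting could split reads, and the same holds for the Reg genes. Of 7 Reg lectin genes 2 rose (Reg2 and Reg3d) and 1 fell, and 1 rose without any 1 of mice C134, C151, C154, M167 and M177. Reg2 stood at 0.117, 0.0225, 0.241 and 0 CPM in control mice and 2.63, 45.2, 53.2 and 31.9 CPM in mutants (log2 fold change 8.36 ± 1.30 SE, adjusted p = 0.00376). The call ended without control mice C134 and C154, and also under limma-voom and with the follicle genes as a covariate. Reg2 is also a gene of pancreatic acinar cells, and its mutant levels were lowest in mouse M136, where the exocrine pancreas list was lowest, yet control mice C133 and C151, at 1500 and 1210 CPM of that list, held at most 0.241 CPM of Reg2. The part of pancreatic RNA in Reg2 was not tested. Reg3a fell by 2.21 (SE 0.38, adjusted p = 0.00341), from 33.5 to 82.7 CPM in controls to 5.72 to 15.1 CPM in mutants.

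Tuft cell genes, markers of the chemosensory cells of the epithelium, fell in 4 of 19 cases and rose in none, a share of falls near the 14.6% over all genes. Called or not, 17 of the 19 had a negative log2 fold change, with a median of -0.55. Their summed level was 229 to 252 CPM in controls and 144 to 219 CPM in mutants. Hpgds, a prostaglandin D synthase, fell by 0.96 (adjusted p = 0.00171) and Plcb2, a phospholipase of taste signalling, by 1.17 (adjusted p = 0.00254). Rgs13 and Dclk1, a marker of mature tuft cells, fell by 0.72 and 0.64. The count of tuft cell genes that fell was 2 without control mouse C154, mutant mouse M136 or mutant mouse M168, and 7 without mutant mouse M177. Of 22 crypt stem cell genes 5 were higher and 3 lower, near the 19.0% and 14.6% over all genes. Olfm4 stood at 667, 1050, 653 and 693 CPM in the controls, compared with 394, 217, 351 and 302 CPM in mutants (log2 fold change -1.28 ± 0.21 SE, adjusted p = 0.00133). Lgr5, the marker of the cycling stem cell, was at 31.7 ± 5.79 and 25.6 ± 2.46 CPM and did not pass the test (adjusted p = 0.0994). Igfbp4 and Ephb2, genes of the crypt base, rose by 0.67 and 0.89, the latter from 52.5 to 74.7 CPM in controls to 103 to 118 CPM in mutants. Hopx, Msi1 and Lrig1 rose by 0.44, 0.38 and 0.35, and Rnf43 and Rgmb fell by 0.35 and 0.27. Without control mouse C151 or C154 or mutant mouse M177 the genes that rose were 2, and without control mouse C134 or mutant mouse M177 the genes that fell were 1.

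Genes of cell division rose in the mutants. All 30 DNA replication genes and all 26 mitosis genes tested were higher in mutants, with median log2 fold changes of 0.91 and 1, against 19.0% higher over all genes. Rrm2, the ribonucleotide reductase subunit that supplies deoxynucleotides, stood at 21.2, 18.3, 20.4 and 20 CPM in control libraries and 56.1, 75.7, 55.9 and 72.4 CPM in mutant libraries (log2 fold change 1.70 ± 0.12 SE, adjusted p = 2.17e-05). Mcm5, a subunit of the replicative helicase, stood at 38.8 to 43.5 CPM against 84.3 to 91.1 CPM (log2 fold change 1.09, SE 0.08), and Mcm3 of the same ring rose by 1.08. The cyclin gene Ccnb2 stood at 15.8, 19.6, 16.3 and 19.4 CPM in control mice and 54.7, 47, 43.8 and 42.9 CPM in mutants (log2 fold change 1.41 ± 0.11 SE, adjusted p = 3.61e-05). No mutant library overlapped a control for any of these 4 genes. Ccna2 and the mitotic kinase gene Plk1 rose by 1.32 and 1.18. Cdk1, whose promoter is printed above, rose from 18.6 ± 1.32 to 36.8 ± 5.00 CPM. With any 1 mouse left out 30 replication genes and 24 to 26 mitosis genes rose, and without control mice C134 and C154 the counts were 28 and 23.

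Genes that supply a growing cell rose with them, in 3 lists that were added after the first fit had been seen. Of 20 ribosome biogenesis genes 19 rose (median log2 fold change 0.88), of 14 nucleotide synthesis genes 12 (0.73) and of 17 glycolysis genes 15 (0.82), and none fell. Nolc1, a nucleolar chaperone of ribosome assembly, stood at 29.2 to 34.7 CPM in the controls, compared with 60.9 to 84 CPM in mutants, and Ltv1, which matures the small ribosomal subunit, rose by 1.13. Ctps and Adsl, enzymes of pyrimidine and purine synthesis, rose by 1.02 and 1.01. Pkm, a pyruvate kinase gene, stood at 235, 235, 224 and 221 CPM against 447, 401, 421 and 416 CPM. Its log2 fold change was 0.88 (SE 0.08, adjusted p = 6.02e-05), and Eno1 rose by 0.82. Of the oxidative phosphorylation genes 9 of 27 rose and none fell, a count of 4 or 5 without control mouse C151 or C154 or mutant mouse M136, M168 or M177 and of 21 without mutant mouse M167. Without control mice C134 and C154, 19 ribosome biogenesis, 11 nucleotide synthesis, 11 glycolysis and 3 oxidative phosphorylation genes rose. Epithelial structural genes, also listed after the first fit, had 3 of 12 higher (5 without mutant mouse M167) and 2 lower. Both shares lie near the 19.0% and 14.6% over all genes. The summed level of this list was 16800 to 19000 CPM in controls and 16700 to 20900 CPM in mutants. The keratin gene Krt18 rose from 299 ± 35.8 to 666 ± 38.9 CPM and Krt19 and Krt8 by 0.78 and 0.69, and Cdhr2, a cadherin that links microvilli, fell from 2520 ± 283 to 1270 ± 162 CPM, with its partner Cdhr5 at a log2 fold change of -0.68.

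Genes of growth factor signalling were partly higher. Of 21 EGF family ligands, receptors and targets of the kinase ERK, 8 rose and 2 fell, against 19.0% and 14.6% over all genes. The summed level of the list did not rise, at 1570 to 1830 CPM in controls and 1340 to 1590 CPM in mutants. Etv4, a transcription factor induced by ERK, stood at 0.754, 0.135, 0.875 and 0.565 CPM in control libraries and 6.57, 8.85, 4.07 and 6.68 CPM in mutant libraries (log2 fold change 3.47 ± 0.45 SE, adjusted p = 0.000472). The ligand genes Btc and Nrg1 rose by 0.93 and 1.07 (adjusted p = 0.000668 and 0.0035), while the receptor genes Erbb2 and Erbb3 fell by 0.40 and 0.54. Egf and Egfr did not pass the test (adjusted p = 0.212 each).

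**Figure D3:**
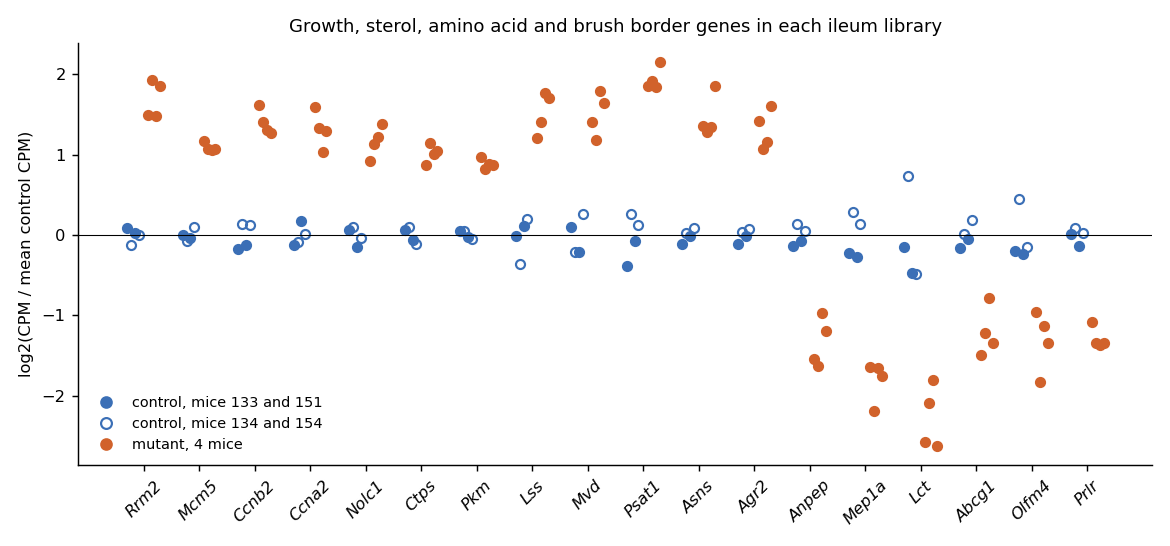
Level of 18 genes in each ileum library, as log2 of CPM over the mean of the 4 controls. Each point is 1 library, blue for controls (open for mice C134 and C154) and orange for mutants. From Rrm2 to Agr2 all mutant libraries lie above all controls, and from Anpep to Prlr all lie below.

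Genes of cholesterol synthesis were higher in mutants. Of 25 genes 19 rose and none fell, with a median log2 fold change of 1.03. Lss, lanosterol synthase, stood at 32.9, 25.8, 35.9 and 37.9 CPM in control mice and 76.5, 87.3, 112 and 108 CPM in mutants (log2 fold change 1.54 ± 0.15 SE, adjusted p = 7.46e-05). Every mutant library was above every control for this gene, and Mvd and Acat2 rose by 1.52 and 1.07. Hmgcs1, whose promoter is printed above, rose from 230 ± 46.5 to 474 ± 16.4 CPM. Between 18 and 20 members rose with 1 mouse left out, and 17 without control mice C134 and C154.

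Sterol transport genes went the other way, with 6 of 10 lower and none higher (median log2 fold change -0.68). Abcg1, a cholesterol exporter and a target of the sterol receptor LXR, stood at 18.8, 21.2, 20.4 and 24.1 CPM in the controls, compared with 7.51, 9.09, 12.3 and 8.33 CPM in mutants (log2 fold change -1.18 ± 0.16 SE, adjusted p = 0.000319). Abcg5, part of the pump that returns sterols to the lumen, fell by 1.46 (adjusted p = 0.0027), and Mylip, an LXR target that degrades the LDL receptor, by 0.72 (adjusted p = 0.00458). With control mice C134 and C154 left out, 3 members fell, and Mylip was not among them. Fatty acid synthesis genes rose in 8 of 16 cases and fell in 1 (Elovl5), against 19.0% and 14.6% over all genes. Elovl6 and Acly were up by 0.74 and 0.58, and 5 members rose without control mouse C133 or mutant mouse M168.

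Fat absorption and bile acid handling showed few changes. Of 22 genes of lipid uptake and chylomicrons 2 rose (Acsl3 and Dgat2) and 1 fell, against 19.0% and 14.6% over all genes, and 5 rose without control mouse C134 and 4 without mutant mouse M167, while 2 fell without C151 or M136. Acsl3, an acyl-CoA synthetase, stood at 66.9, 73.6, 55.9 and 59.3 CPM against 122 to 224 CPM, a log2 fold change of 1.45 (SE 0.17, adjusted p = 0.00019), and Cd36, a fatty acid transporter, fell by 0.87. Mttp, needed to load chylomicrons, was at 2050 ± 669 and 2000 ± 723 CPM and Apoa4 at 2580 ± 1130 and 3010 ± 1550 CPM. Of 9 ileal bile acid genes 1 rose and 2 fell, and without control mice C134 and C154 none of these calls held. With 1 mouse left out 0 or 1 rose and 0 to 2 fell. Abcc3 rose by 0.45 (adjusted p = 0.0375, up to 0.124 with 1 mouse left out) and Nr0b2, the repressor SHP, fell by 1.5 (adjusted p = 0.0426, up to 0.135), and their groups overlapped, while Slc51a, a subunit of the basolateral exporter, fell by 0.50 (adjusted p = 0.0478). The bile acid importer gene Slc10a2 was at 606 ± 184 and 532 ± 89.6 CPM and Fgf15, the hormone that bile acids induce in ileal enterocytes, at 31.7 ± 27.0 and 23 ± 24.9 CPM, neither past the test.

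Genes of peptide digestion and amino acid absorption fell in 14 of 22 cases and rose in none, with a median log2 fold change of -0.75. Anpep, the brush border aminopeptidase N, stood at 10200, 12300, 10600 and 11600 CPM in control libraries and 3850, 3610, 5710 and 4900 CPM in mutant libraries (log2 fold change -1.31 ± 0.16 SE, adjusted p = 0.000199). Mep1a, a subunit of the protease meprin, stood at 1300 to 1910 CPM against 344 to 504 CPM (log2 fold change -1.79), and Mep1b and Dpp4, the peptidase that inactivates GLP-1, fell by 0.96 and 1.01. The peptide transporter gene Slc15a1 fell from 791 ± 384 to 264 ± 61.3 CPM, while Slc6a19, the main transporter of neutral amino acids, was at 784 ± 205 and 679 ± 200 CPM (adjusted p = 0.539). Once control mice C134 and C154 were left out, 9 members fell.

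Of 16 carbohydrate genes 5 fell and none rose, against 14.6% and 19.0% over all genes, and 9 fell without mutant mouse M168. Lct, the lactase gene, stood at 853, 1560, 681 and 672 CPM in controls, highest in mouse C134, and at 158, 221, 270 and 153 CPM in mutants (log2 fold change -2.23 ± 0.32 SE, adjusted p = 0.00119). Pck1 and G6pc, genes of glucose production, fell by 1.24 and 1.77, and Slc5a4a and the trehalase gene Treh by 2.39 and 1.46. Sis, sucrase-isomaltase, was at 3940 ± 1240 and 5200 ± 2520 CPM (adjusted p = 0.415). Among regional and epithelial transcription factors 6 of 16 fell and 1 rose (Cdx1, by 0.40), against 14.6% and 19.0% over all genes. The share that rose lies under that over all genes, and only 2 members fell without control mice C134 and C154. No member rose without C151, C154 or M177, whereas 2 rose without C134 and 3 without M167. Maf stood at 380 to 436 CPM in control mice and 165 to 209 CPM in mutants (log2 fold change -1.15 ± 0.10 SE, adjusted p = 4.72e-05) and Prdm1, the repressor BLIMP1, fell by 0.71, while Hnf4a and Cdx2 missed the threshold (log2 fold changes 0.02 and -0.14).

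Genes of several stress responses rose. Of 17 genes of the amino acid starvation response, which the factor ATF4 drives, 11 rose and none fell, with a median log2 fold change of 1.33. Psat1, an enzyme of serine synthesis, stood at 12.9, 20.1, 16 and 18.3 CPM in the controls, compared with 60.7, 63.1, 60.3 and 74.6 CPM in mutants (log2 fold change 1.94 ± 0.14 SE, adjusted p = 2.56e-05). Shmt2, which passes carbon from serine to folate in mitochondria, rose by 1.45. Asns, asparagine synthetase, whose promoter is printed above, stood at 39.5, 43.4, 42.3 and 45.5 CPM in control libraries and 109, 104, 108 and 153.95 CPM in mutant libraries (log2 fold change 1.48 ± 0.13 SE, adjusted p = 4.29e-05). The other mutants lay close together for Asns, with mouse M177 apart. Ddit3 and Trib3, also ATF4 targets, missed the threshold (log2 fold changes -0.10 and 1.23). In the fit lacking control mice C134 and C154, 7 of 18 rose.

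Targets of NRF2, the factor that answers oxidants, rose in 10 of 16 cases and fell in none (median log2 fold change 0.82). Txnrd1, thioredoxin reductase, stood at 242 to 299 CPM in control mice and 416 to 547 CPM in mutants, a log2 fold change of 0.80 (SE 0.11, adjusted p = 0.000402), and Nqo1 rose by 1.25. Genes of protein folding in the endoplasmic reticulum rose in 10 of 19 cases, against 19.0% over all genes. They rose in 4 to 6 cases without control mouse C151 or C154 or mutant mouse M168 or M177, and in 2 without both control mice C134 and C154.

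Genes of antigen presentation fell in the mutants. All 10 MHC class II genes and all 16 MHC class I genes tested were lower in mutants, with median log2 fold changes of -2.53 and -1.37, against 14.6% lower over all genes. Ciita, the master regulator of class II genes, stood at 42.5, 48.8, 24.2 and 53.9 CPM in the controls, compared with 6.24, 7.77, 9.58 and 7.62 CPM in mutants (log2 fold change -2.44 ± 0.24 SE, adjusted p = 0.000129). Cd74, the invariant chain that guides class II molecules, stood at 1770, 1360, 715 and 1010 CPM against 175, 164, 275 and 161 CPM (log2 fold change -2.65 ± 0.30 SE, adjusted p = 0.000337). Controls were more scattered than mutants for both, with control mouse C151 lowest, yet no libraries overlapped. H2-DMa, which loads peptides, fell by 2.34, and H2-Aa, whose promoter is printed above, by 2.49 (adjusted p = 0.00146). In class I, Tapbp, which holds the empty molecule at the peptide pump, stood at 407, 397, 328 and 394 CPM in control libraries and 119 to 165 CPM in mutant libraries (log2 fold change -1.39 ± 0.12 SE, adjusted p = 4.08e-05). Tap2, a subunit of that pump, fell by 1.38 and B2m, the light chain, from 1100 ± 222 to 359 ± 77.3 CPM. H2 genes have near-identical relatives among which reads may be split.

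Interferon response genes fell in 28 of 31 cases and rose in none, with a median log2 fold change of -1.56. Ddx58, the sensor of viral RNA RIG-I, stood at 84.7, 84.3, 74.8 and 80.3 CPM in control mice and 30.1, 32.7, 35.1 and 37.5 CPM in mutants (log2 fold change -1.26 ± 0.09 SE, adjusted p = 2.58e-05). Parp14 and Iigp1, the latter a GTPase induced by interferon gamma, fell by 1.14 and 1.65. Ifit1, whose promoter is printed above, fell from 18.7 ± 7.75 to 2.97 ± 1.79 CPM.

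Lymphocyte transcripts were also lower. All 22 T cell genes tested fell, with a median log2 fold change of -2.20. Cd3e, part of the T cell receptor complex, stood at 10.9, 15.5, 8.59 and 13.9 CPM in the controls, compared with 1.81, 2.47, 3.47 and 1.71 CPM in mutants (log2 fold change -2.37 ± 0.26 SE, adjusted p = 0.000132). Cd8a stood at 7.9, 9, 6.87 and 5.87 CPM against 1.11, 0.728, 2.02 and 0.952 CPM, a log2 fold change of -2.63 (SE 0.30, adjusted p = 0.000143), and Cd8b1 fell by 2.86. Itgae, the integrin that holds lymphocytes in the epithelium, stood at 16.9 to 22.1 CPM against 4.17 to 6.85 CPM (log2 fold change -1.91, SE 0.17). In each of these genes the highest mutant library was mouse M168, still below every control. Of 9 epithelial genes known to support intraepithelial lymphocytes, a list added after the first fit had been seen, 5 fell and none rose, among them Il15, a survival cytokine of these cells, and Btnl1 and Btnl2, by 0.78, 1.29 and 1.30. H2-T3, a thymus leukemia antigen that binds CD8, fell by 1.36 and Btnl6, a butyrophilin-like gene, by 0.92. H2-T3 is also a member of the class I list.

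Macrophage and dendritic cell genes fell in 16 of 20 cases and rose in 1 (Mrc1, by 0.49). That rise was lost with any 1 mouse left out other than C151 and M168. Cd209a, a dendritic cell lectin, stood at 2.95, 1.93, 1.55 and 2.19 CPM in control libraries and 0.292, 0.457, 0.289 and 0.296 CPM in mutant libraries (log2 fold change -2.68 ± 0.29 SE, adjusted p = 0.000118). Mertk and Csf1r, receptors of macrophages, fell by 1.05 and 0.87. Plasma cell genes fell in 7 of 9 cases and rose in 1 (Txndc5, by 0.33). Jchain, which joins secreted IgA, stood at 822, 1380, 1260 and 1220 CPM against 299, 288, 641 and 225 CPM (log2 fold change -1.69 ± 0.34 SE, adjusted p = 0.00586). Follicle genes fell in 15 of 19 cases, but their level in controls rested on mice C134 and C154. Ccr7 stood at 0.821, 6.96, 0.896 and 6.41 CPM in control mice and 0.0585 to 0.351 CPM in mutants, and Fcrla at 2.05, 10, 2.45 and 12.9 CPM against 0.76 to 1.47 CPM. Gp2 of the follicle list, a marker of M cells and also a gene of the exocrine pancreas, was higher in mutants without passing the test (8.61 ± 2.46 against 47.5 ± 32.3 CPM, adjusted p = 0.0527). Gp2 is counted in the follicle sums, which were 18, 103, 74.5 and 67.9 CPM in mutants and rest there in large part on this gene.

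The immune lists differed in how far they rested on control mice C134 and C154, the 2 controls with a high follicle sum. Without them 21 of 22 T cell genes, 9 of 10 class II genes, 11 of 16 class I genes, 27 of 31 interferon genes, 12 of 20 macrophage and dendritic cell genes and 5 of 9 genes of intraepithelial lymphocyte support fell, with T cell and class II medians of -1.92 and -2.31. Without them 6 of 19 follicle genes and 1 of 9 plasma cell genes fell. With 1 mouse left out at a time, T cell counts were 21 or 22 and class II counts 7 to 10. Follicle counts were 3 or 4 without any 1 mouse other than C133 and C151.

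**Figure D4:**
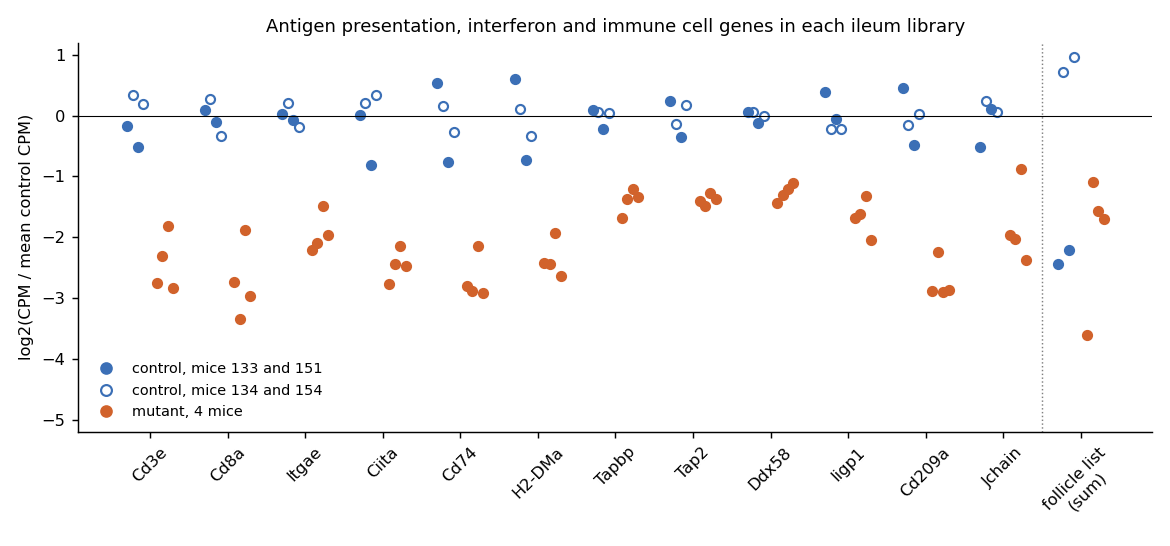
Level of 12 immune genes, and the summed level of the follicle list, in each ileum library, as log2 of CPM over the mean of the 4 controls. Each point is 1 library, blue for controls (open for mice C134 and C154) and orange for mutants. Mutants lie below all controls for the single genes, whereas for the follicle sum control mice C133 and C151 lie among the mutants. The sum includes Gp2, also a gene of the exocrine pancreas, whose mean was higher in mutants without passing the test.

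The remaining genes with the largest rises belong to varied families. Tmprss11f, a membrane serine protease, had 4 counts over the controls and stood at 2.38, 2.45, 1.16 and 2.5 CPM in mutants (log2 fold change 6.49 ± 0.71 SE, adjusted p = 0.000128). Il1rn, the antagonist of the interleukin-1 receptor, stood at 7.54, 5.43, 5.47 and 6.48 CPM in the controls, compared with 42.1, 100, 47.1 and 38.7 CPM in mutants (log2 fold change 3.19 ± 0.34 SE, adjusted p = 0.000289). S100a14, a calcium-binding protein of epithelia, stood at 3.62, 2.51, 2.82 and 2.87 CPM against 26.5, 23.5, 21.9 and 18.2 CPM, 7.60-fold higher (adjusted p = 4.38e-06). Of these S100a14 had the most even libraries. Akr1b8, an aldo-keto reductase, rose 10.2-fold, from 4.62 to 7.07 CPM in controls to 38.5 to 90.5 CPM in mutants, and Cwh43, which remodels the lipid of protein anchors, rose 9.47-fold. Igfbp2, a binding protein of insulin-like growth factors, was uneven, at 0.151 to 0.18 CPM in control libraries and 2.96, 0.795, 1.34 and 9.39 CPM in mutant libraries (log2 fold change 4.45 ± 0.85 SE, adjusted p = 0.00497). Anxa8 and Gml, an annexin and a gene of the Ly6 family, rose by 2.82 and 3.09. Igkv7-33, a segment of immunoglobulin kappa chains whose level depends on which B cell clones are present and whose relatives share sequence, rose by 4.72 (SE 0.98, adjusted p = 0.0088). The calls for Igfbp2, Igkv7-33 and Anxa8 ended without control mice C134 and C154. Those for Igfbp2 and Igkv7-33 also ended with the follicle genes as a covariate.

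The same mice gave the duodenum libraries, and a fit to all 16 libraries tested where the effect in the ileum differed from that in the duodenum. It found 1734 of 19289 genes (8.99%), 938 with a higher log2 fold change in the ileum (4.86%) and 796 with a lower one (4.13%), and 5864 at an unadjusted p under 0.05. That fit does not use the pairing of the tissues by mouse. With the mouse number as a replicate block 4027 genes differed, and without control mice C134 and C154 only 22. In the fit without the block 3221 genes rose and 3128 fell in the ileum, against 1202 and 1289 in the duodenum. Cell division genes differed in one direction. Of 26 mitosis genes 13, and of 30 replication genes 10, had a higher log2 fold change in the ileum and none a lower one, with medians of 0.96 and 0.88 in the ileum and 0.28 and 0.33 in the duodenum. Ccnb2 rose by 1.38 in the ileum and 0.20 in the duodenum (adjusted p = 0.00364 for the difference). Of 17 glycolysis genes 7 had a higher log2 fold change in the ileum, against 4.86% over all genes. Class II and T cell genes had a lower one in 7 of 10 and 7 of 22 cases, with medians of -2.58 and -2.23 against -1.16 and -0.92. None of the 31 interferon genes passed for a difference (3 with the block), and that list had medians of -1.60 in the ileum and -1.11 in the duodenum. For Paneth cell genes 4 of 14 differed, all lower in the ileum, with medians of -0.05 and 0.77. With the replicate block the counts were 19 for mitosis, 21 for replication, 9 for glycolysis, 7 for class II, 18 for T cell and 7 for Paneth cell genes. Without control mice C134 and C154 they were 1 for glycolysis, 1 for Paneth cell genes and 0 for the other lists.

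Hormones differed by gene. Pyy fell by 10.01 in the ileum and had a log2 fold change of -1.63 in the duodenum, which did not pass the test there (difference -8.38, adjusted p = 0.00512). Sst fell by 2.54 and 3.75 (difference 1.21, adjusted p = 0.00555). Sct and Tac1 also fell less in the ileum than in the duodenum, by differences of 1.61 and 2.44. The differences for Gcg and Cck did not pass (-4.34 and 3.70, adjusted p = 0.0847 and 0.0989), nor did that for Chga (-0.08). With the replicate block these missed the threshold too (adjusted p = 0.0906, 0.106 and 0.87), and Pyy, Sst, Sct and Tac1 passed (adjusted p = 0.000483, 0.00159, 0.00135 and 0.00089). In the duodenum the exocrine pancreas and pancreatic islet lists had median log2 fold changes of 3.06 and 2.04, with no member past the test. The part of pancreatic RNA in the hormone levels of the duodenum was not tested.

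The 8 genes with the smallest p-values for a difference between tissues were Cwh43, Il1rn, Col18a1, Tgfbi, Trpa1, Sae1, Prlr and Abcb8. Cwh43 rose by 3.21 in the ileum and fell by 1.21 in the duodenum (adjusted p = 4.02e-05 for the difference), and Il1rn rose by 3.16 against a log2 fold change of -0.62 (adjusted p = 8.72e-05). Trpa1, an irritant-sensing channel of enterochromaffin cells, stood at 2.63, 1.71, 2.49 and 2.82 CPM in control ileum and at 3.04, 5.75, 4.33 and 3.98 CPM in mutant ileum, whereas it fell by 3.84 in the duodenum (difference 4.63, adjusted p = 0.000747). Tgfbi, a matrix protein induced by TGF-beta, stood at 556, 391, 508 and 590 CPM in control ileum and at 149 to 179 CPM in mutant ileum, with a log2 fold change of 0.05 in the duodenum (difference -1.78, adjusted p = 0.000406). Prlr, the prolactin receptor, fell in the ileum from 337 to 392 CPM in controls to 143 to 175 CPM in mutants (difference -1.03, adjusted p = 0.0013). Sae1, which activates the modifier SUMO, and Abcb8, a mitochondrial transporter, rose by 0.88 and 0.74 in the ileum in this fit (differences 1.30 and 0.96). Col18a1, a collagen of basement membranes, fell by 1.42 in the duodenum, with a log2 fold change of 0.19 in the ileum. The number of genes that differ between tissues depended on single mice, each left out of both tissues. It was 333, 562, 184 and 577 with C133, C134, C151 or C154 left out and 471 and 1060 without mutant mouse M136 or M177. Without mutant mouse M167 or M168 it was 1891 and 2009. Without both control mice C134 and C154, Prlr, Abcb8 and every hormone gene, Pyy and Sst included, missed the threshold for a difference.

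**Figure D5:**
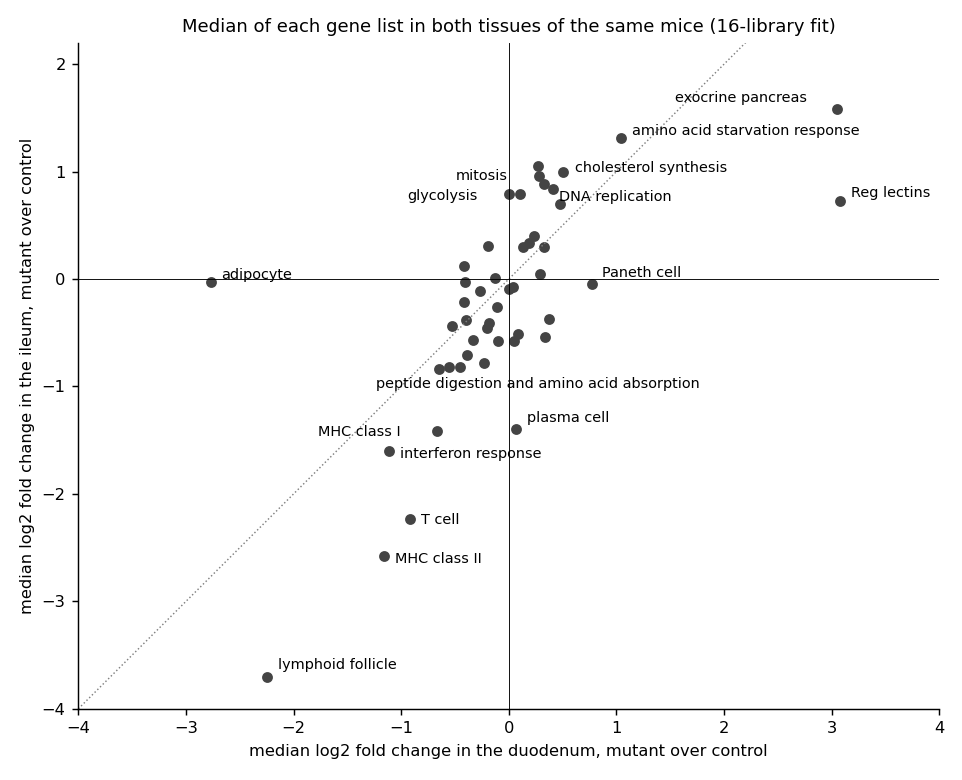
Median log2 fold change, mutant over control, of each gene list with at least 5 tested members in the duodenum (horizontal axis) and ileum (vertical axis), from 1 fit to all 16 libraries, with the enteroendocrine hormone and transcription factor lists left out for scale. Each point is 1 list and the dotted line marks equal medians. MHC class II lies at -2.58 in the ileum and -1.16 in the duodenum, and mitosis at 0.96 and 0.28.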

How the data were processed

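Total RNA was extracted with NucleoSpin RNA Plus and sequenced as stranded total RNA libraries (TruSeq, with riboPOOL removal of ribosomal RNA), per the labels' protocols. The authors deposited raw read counts per gene. The submitters' processing notes name cutadapt 1.10, Bowtie2 2.2.8, STAR 2.5.3a, HTSeq 0.6.1p1 and mm39. Which strand HTSeq counted, and on which annotation, is not given in the sources used, so overlapping and antisense genes are uncertain.

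Counts were normalized by TMM, filtered with filterByExpr and tested with edgeR 4.0.16 (quasi-likelihood, robust; R 4.3.3; Benjamini-Hochberg adjusted p under 0.05), mutant against control in the 8 ileum libraries. The genotype-by-tissue term came from all 16 libraries. The script was tested on simulated data. Alternatives used DESeq2 1.42.0, limma 3.58.1, other filters, covariates and left-out mice. Totals of 40.9 to 58.0 M counts set the precision. Of 55359 genes 21034 had no count in any library. The highest correlation between 2 ileum libraries was 0.983 and none were identical. Duodenum and ileum libraries of 1 mouse deviated together (r 0.22 to 0.48, and 8 of 8 mice matched their own number best), so the mouse number pairs the tissues but not the genotypes.

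The genes named by rule are Neurog3, Gcg, Pyy, Nts, Sst, Cck and Chga, the 12 largest rises and falls at a mean of at least 1 CPM without overlap, up to 4 members of each list with the smallest p, and the 8 smallest p-values between tissues. Genes printed only with mean ± SD, only with a log2 fold change below a list's leading members, or as not passing were chosen after their values were seen. A few list members are counted but not reported here by name. Members and lists were chosen with earlier results of these data known. Promoters are RefSeq's, in GRCm38.p6, and no coordinate was converted.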

Additional observations from a re-analysis of the deposited data

Results flagged for a closer look

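In 16 of 205 groups of 4 libraries, 1 library lay apart from the other 3 by Dixon's test at the 95% level, where chance gives about 1 in 20. Mutant mouse M167 was apart in 6 genes. It was low for H2-T3 (23.3 CPM, others 37 to 39.3), Btnl6 (97.3 CPM, others 141 to 143), Abcb8 (42.8 CPM, others 51.1 to 52.7) and Reg3a (5.72 CPM, others 12.8 to 15.1), and high for Nrg1 (66.8 CPM, others 37.4 to 40.5) and Cd209a (0.457 CPM, others 0.289 to 0.296). Mutant mouse M168 was high for Tgfbi (179 CPM, others from 149) and Cd74 (275 CPM, others 161 to 175) and low for Tmprss11f (1.16 CPM, others 2.38 to 2.5). Mutant mouse M136 was high for Prlr (175 CPM, others 143 to 146) and low for Mcm3 (50.2 CPM, others 57.8 to 59), and mutant mouse M177 was high for Asns (153.95 CPM, others 104 to 109). Among controls, mouse C134 was high for Olfm4 (1053 CPM, others 653 to 693) and low for Acly (131 CPM, others 164 to 166) and Col18a1 (57.1 CPM, others 64.7 to 65.4), and mouse C151 was low for Tapbp (328 CPM, others 394 to 407).

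The effect of genotype differed between ileum and duodenum, by the genotype-by-tissue term of edgeR, for 44 of the 111 genes named. Over all genes tested for this term the share was 8.99%. The named genes include the 8 with the smallest p for this same term, and most others were named for their values in the ileum. The count of 44 is therefore in part fixed by how the genes were named. Values are given for 10, those always named or with the smallest p for this term. For them the difference in log2 fold change, ileum minus duodenum, was 4.63 for Trpa1, 4.43 for Cwh43, 3.77 for Il1rn, 1.61 for Col18a1, 1.3 for Sae1, 1.21 for Sst and 0.96 for Abcb8. It was -8.38 for Pyy, -1.78 for Tgfbi and -1.03 for Prlr. In the fit to all 16 libraries, Cwh43 and Sae1 were called in opposite directions in the 2 tissues. Trpa1 was called lower in the duodenum in that fit, and higher in the ileum by the test on the ileum libraries alone (adjusted p = 0.0194).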

How the results depend on the processing

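The 3474 genes higher and 2672 lower in mutant ileum kept within 1.5 times of those counts under DESeq2's size factors, the DESeq2 Wald test, limma-voom, other count filters, a smooth muscle covariate, all 16 libraries in 1 fit and each mouse left out. The range over mice left out was 2806 to 4025 higher and 1864 to 3116 lower. A test against a fold change of 1.5 called 572 higher and 607 lower, which moved the share of higher calls from 56.5% to 48.5%. With the follicle genes as a covariate 1770 were higher and 1118 lower, and 10 genes changed sign. Leaving out control mice C134 and C154 gave 1677 lower. The difference between tissues rested on more settings. Its 1734 genes became 4027 with the mouse number as a replicate block and 3191 with the DESeq2 Wald test. They became 22 without control mice C134 and C154, and 184 to 2009 with each mouse left out of both tissues. Of 111 named genes 30 lost the threshold in the ileum under at least 1 alternative, as did 4 of 10 for the difference between tissues, and none reversed. The cause of these changes was not tested. Genes under about 1 CPM rest on few counts, and their fold changes are least certain.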

Other observations

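Other gene groups were measured in the ileum, and their members named here were chosen after their values were seen. Over all genes 19.0% rose and 14.6% fell. Of 12 vitamin A genes 4 fell and 2 rose. Stra6, a retinol transporter, fell by 3.43, Rdh7 by 1.83, Lrat, which stores retinol as esters, by 0.84 and Dhrs3 by 0.41, while Isx and Bco1, a repressor of carotene uptake and the enzyme that cleaves carotene, rose by 0.48 and 1.26. Only 2 vitamin A genes fell without mutant mouse M177, and with any 1 mouse but C134 left out the number that rose was 0 or 1. Of 11 cytochromes P450, 3 fell and none rose. These were Cyp3a25, Cyp2c55 and Cyp2d26, by 2.18, 1.18 and 1.18, and 6 fell without mutant mouse M168. Of 11 genes of epithelial alarm and oxidant defence 3 rose (Il1rn, Lcn2 and Il18, by 3.19, 1.28 and 1.30) and 2 fell. Ido1, an interferon-induced enzyme that degrades tryptophan, fell by 3.01 (adjusted p = 0.000132) and the alarm cytokine Il33 by 0.81.

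Clock genes fell in 5 of 18 cases and rose in 2 (1 without C133 or C151). Nr1d1, a repressor of the clock, fell by 1.46 (adjusted p = 6.02e-05), Bhlhe41 by 1.8, Dbp by 1.52, Usp2 by 0.51 and Per1 by 0.49, and Cry1 and Bhlhe40 rose by 0.70 and 0.53. The hour of collection is not used here, and its part was not tested. With 1 of mice C133, C134, C151, M136, M167 and M177 left out, 2 or 3 clock genes fell. Of 26 fatty acid oxidation genes 3 rose, among them Acadl and Ucp2, and 2 fell (Cyp4a10 and Vnn1). Both shares lie under those over all genes. The count of those that rose was 9 without mutant mouse M167 and 1 without control mouse C154 or mutant mouse M168, and none fell without C133, C134, C154 or M136.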
